A study of Mus musculus with 15 samples.

Results

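The Rab GTPases are the genes described here: every gene whose official mouse symbol is Rab followed by a number and at most a letter and a digit, whatever its response. The RefSeq gene table held 59 such genes, 57 of them had a probe on the array (all but Rab36 and Rab44) among 20660 genes with a probe, and 56 could be tested among 17338. Rab39 was the 1 member left out, because no probe of it stood well above background on as many as 3 arrays. Messenger RNA had been measured in whole pancreas of male C57BL/6J mice on Agilent one-colour arrays, 1 array per labelled animal. The 15 arrays formed 4 groups: wild type (WT) mice given saline (n = 4) or cerulein (n = 4), and transgenic (TG) mice given saline (n = 3) or cerulein (n = 4). All mice had fasted for 18 h, received 1 intraperitoneal injection of saline or of 50 µg/kg cerulein, with killing 3 h after it; GEO's time label for saline mice reads 0 h. In the series text each group has 4 mice, and a 4th TG saline array was not analysed here. The series title ties the transgene to betacellulin (Btc), an EGFR and ERBB4 ligand, while its promoter, the cells that express it, the number of founder lines and the animals' ages are not given in the sources used here.

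Rab proteins are small GTPases that mark membranes. In the GTP-bound state a Rab recruits effectors (tethers, motors, fusion factors), exchange factors load GTP, GTPase activating proteins switch the Rab off, and prenylation with escort proteins puts it on and takes it off the membrane. The pancreatic acinar cell makes digestive enzymes, stores them in zymogen granules and releases them at its apex when cholecystokinin receptors are stimulated, and Rab3, Rab26, Rab27 and Rab37 proteins are known on such secretory granules. Cerulein is a cholecystokinin analogue, and a supramaximal dose starts acute pancreatitis in rodents, with missorted zymogens, vacuoles and autophagy.

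Levels below are log2 spot signal minus the 75th percentile of that array, so a level of 0 equals that percentile and a difference of 1 is a doubling. Levels of different genes come from different probes and are not compared. A gene is called when the adjusted p of limma (Benjamini-Hochberg over the 17338 genes) is below 0.05. The share of probes well above background ran from 54.9% to 76% over the arrays, and the 75th percentile lay between 152.3 and 528.9 intensity units. The arrays lie on 3 slides, and slide 2 holds 3 cerulein arrays and no saline array, so values are also given from a model with a slide term and inside slides 1 and 3 alone. The median level of the 56 Rab genes ran from 0.13 to 1.06 over the arrays, and all 7 arrays of slide 3 (0.7 to 1.06) lay above the other 8 (0.13 to 0.55). The mean of the 10 acinar marker genes ran from 9.78 to 11.62 over the arrays. The Btc probe was well above background on 1 of 4 WT and 2 of 3 TG saline arrays, so the saline groups do not check the genotype labels; after cerulein, where all 8 arrays measured it, TG minus WT was 0.49 ± 0.45 (SE; adjusted p = 0.838).

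Few Rab genes passed the test after cerulein. In WT pancreas 1 rose (Rab6a) and 4 fell (Rab3a, Rab27a, Rab2a and Rab2b), which is 8.93% of the members against 14% of all genes tested (5.63% higher and 8.35% lower). In TG pancreas Rab3a and Rab37 fell and 0 rose, 3.57% of the members against 8.2% of all genes (4.78% higher and 3.42% lower). Both shares lay below the background in this fit. The background itself moved when 1 array was left out: in WT it was 7.94%, 8.01% and 8.84% without WT saline replicate 6, 7 or 8 and 25.6% without WT cerulein replicate 10, and in TG 4.01% and 4.32% without TG saline replicate 3 or 4 and 5.01% without TG cerulein replicate 14. The members' counts moved as well, from 0 to 1 higher and 2 to 9 lower in WT and 0 to 2 higher and 1 to 2 lower in TG. These backgrounds thus do not stand beside the members' shares of the full fit. Groups did not overlap for 16.1% of the members in WT and 14.3% in TG, beside 17.4% and 21.6% of all genes; those in WT that missed the threshold were Rab40b (-0.96 ± 0.33), Rab20, Rab4b, Rab5c and Rab3b, all lower after cerulein. By limma an unadjusted p below 0.05 was found for 14 members in WT and 12 in TG, beside 5398 and 3786 of 17338 genes. Unadjusted counts given below for lists after cerulein stand beside that background. The median difference of the members was -0.21 in WT and -0.1 in TG, beside -0.06 over all genes in each. With slide in the model the counts were larger: 9 rose and 3 fell in WT (21.4%, with 21.6% of all genes called, 13.8% higher and 7.79% lower), and 10 rose and 4 fell in TG (25%, with 23.5% of all genes called, 15.2% higher and 8.35% lower), so these shares lay near the background too. The medians of the members were then 0.07 and 0.05. The 9 that rose in WT under that model (Rab1a, Rab5a, Rab6a, Rab7, Rab7b, Rab11a, Rab23, Rab33b and Rab35) and the 3 that fell (Rab2a, Rab3a and Rab27a) were all called in TG as well, where Rab39b and Rab37 were added. Each of these genes moved in the direction of its call within slide 1 and within slide 3. All saline arrays lie on these slides, so the cerulein differences of the slide model rest largely on them. The shared direction is therefore not separate evidence for the calls. In WT, slide 1 holds 1 cerulein and 1 saline array, and slide 3 holds 1 and 3.

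**Figure D1:**
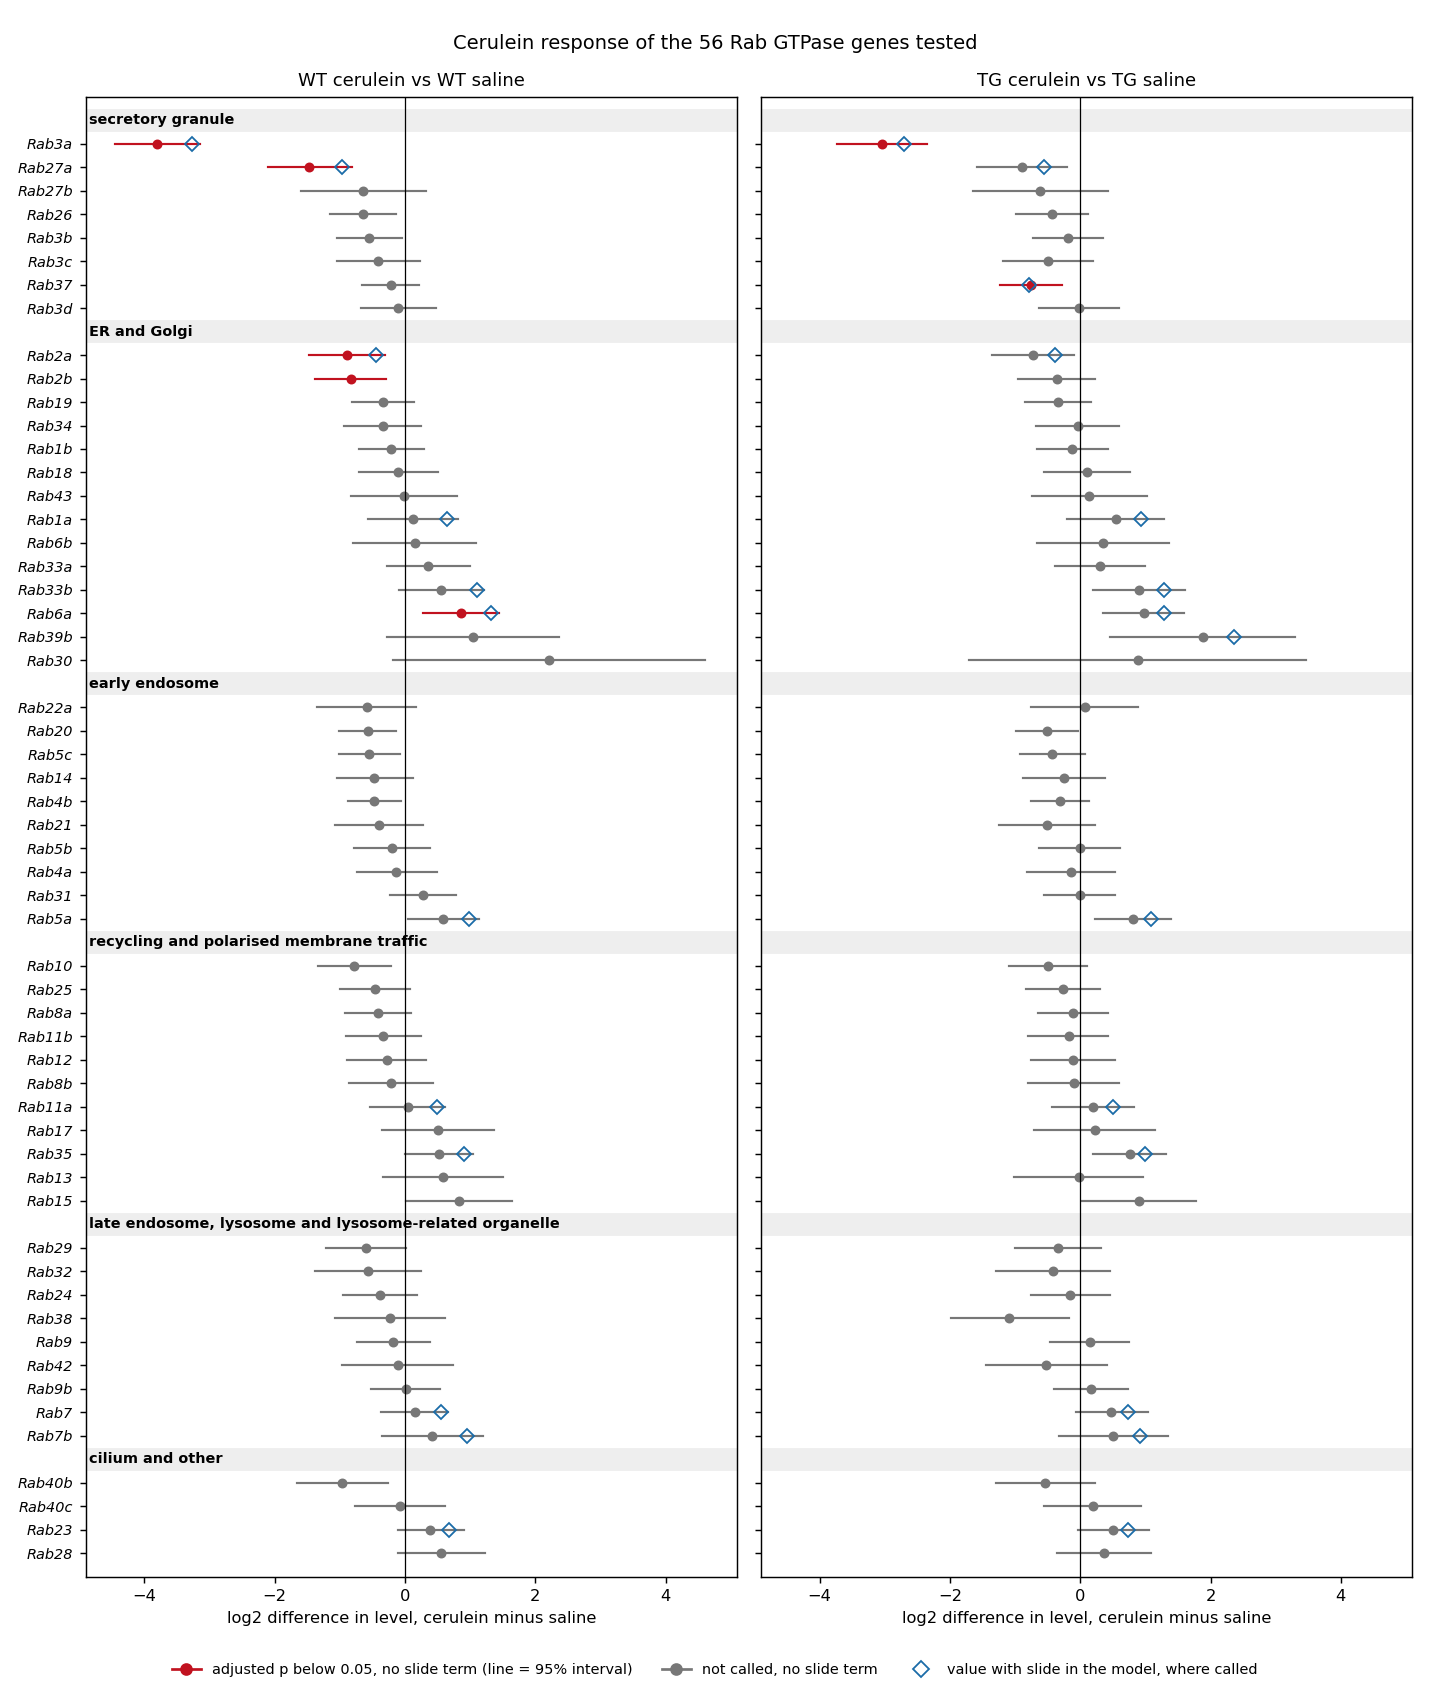
Log2 difference in level, cerulein minus saline, of each Rab gene tested, by role, in WT (left) and TG (right) pancreas; lines are 95% intervals from limma without a slide term, red marks an adjusted p below 0.05, and open diamonds give the value with slide in the model where that is called. Rab3a stands apart on the left at -3.8 and -3.04, and every diamond but that of Rab37 lies to the right of its point.

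Rab3a fell more than any other member in both genotypes. Rab3a is the Rab3 form best known from synaptic vesicles and endocrine granules, where it acts in docking before regulated release. Its level was 2.06, 2.31, 2.8 and 2.57 on the WT saline arrays and -1.76, -0.85, -1.85 and -1.01 on the WT cerulein arrays. The groups were thus separated by a gap wider than the spread within either. The group means were 2.44 ± 0.32 (SD, n = 4) and -1.36 ± 0.51 (SD, n = 4), a 13.9-fold lower level: the log2 difference was -3.8 ± 0.30 (SE), with an adjusted p of 2.33e-06 from limma. In TG pancreas the levels were 1.69, 2.19 and 2.66 after saline and -0.7, -1.36, -1.01 and -0.4 after cerulein. Here too every cerulein array lay below every saline array, with a log2 difference of -3.04 ± 0.33 (adjusted p = 5.9e-05 from limma). Among all 17338 genes the Rab3a difference was the 2nd lowest in WT and the 8th lowest in TG. A slide term made it -3.27 and -2.7; slide 1 alone gave -3.07 and -2.54, and slide 3 alone -3.41 and -2.82. Rab3a was called in both genotypes in all 15 fits that left out 1 array.

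The array holds 1 Rab3a probe. The gene lies on chromosome 8, and the 250 bases before its first RefSeq start (GRCm38.p6, plus strand, chr8:70754453-70754702) are shown because it is the member with the largest fall, with the other windows below as those of the Rab27a gene that fell and of Rab5a and Rab33b, which were called higher with slide in the model. Capitals mark the letters TGACG, the core of a cAMP response element, and CANNTG, the E-box, each searched on both strands (on the minus strand TGACG reads as cgtca, also capitalised); neighbouring matches can overlap and then form 1 run of capitals. The windows, taken from RefSeq, are Rab27a chr9:73044560-73044809, Rab5a chr17:53478984-53479233 and Rab33b chr3:51483716-51483965, all on the plus strand, each the first start listed for its gene and none overlapping another gene of the table.
Rab3a: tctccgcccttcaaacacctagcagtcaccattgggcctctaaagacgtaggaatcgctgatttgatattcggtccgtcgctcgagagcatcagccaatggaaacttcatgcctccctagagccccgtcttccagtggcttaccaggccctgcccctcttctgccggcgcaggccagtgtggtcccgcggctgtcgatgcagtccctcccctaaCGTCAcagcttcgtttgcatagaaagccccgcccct
Rab27a: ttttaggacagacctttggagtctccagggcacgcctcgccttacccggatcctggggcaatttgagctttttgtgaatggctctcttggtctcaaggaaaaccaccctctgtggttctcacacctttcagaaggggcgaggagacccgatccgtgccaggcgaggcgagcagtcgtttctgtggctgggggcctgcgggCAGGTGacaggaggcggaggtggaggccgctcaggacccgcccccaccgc
Rab5a: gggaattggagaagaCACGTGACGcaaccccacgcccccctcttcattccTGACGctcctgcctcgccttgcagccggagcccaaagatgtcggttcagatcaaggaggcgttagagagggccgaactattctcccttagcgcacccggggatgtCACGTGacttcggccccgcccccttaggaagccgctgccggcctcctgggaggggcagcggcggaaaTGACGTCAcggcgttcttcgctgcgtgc
Rab33b: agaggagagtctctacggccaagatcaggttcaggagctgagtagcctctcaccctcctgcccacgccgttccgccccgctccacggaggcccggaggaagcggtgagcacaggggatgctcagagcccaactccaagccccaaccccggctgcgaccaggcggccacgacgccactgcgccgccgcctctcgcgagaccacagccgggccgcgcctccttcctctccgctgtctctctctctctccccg
Rab3a had 1 TGACG match and 0 CANNTG, Rab27a 0 and 1, Rab5a 4 and 2, and Rab33b 0 and 0. Starts not printed differ from these: the second RefSeq start of Rab3a held 0 and 3, and that of Rab27a 1 and 6. The Rab6a window held 1 and 1 and the Rab35 window 0 and 0, and each of them overlaps another gene. Whether these letters go with the direction of change was not tested. Of 60 windows of 48 matched Rab genes, 40% held TGACG and 63.3% held CANNTG, beside 17.8% and 66.2% of all 32851 windows in the table. A match is only a run of letters and says nothing about binding.

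The other Rab3 genes did not pass the test in either genotype. Rab3d, the Rab3 form long known on zymogen granules, had group means of 3.8 and 3.69 in WT and 3.88 and 3.86 in TG (saline, then cerulein), and its difference of -0.10 ± 0.27 in WT has a 95% interval of -0.68 to 0.47. A dimmer Rab3d probe, well above background on all 15 arrays, differed by 0.29 in WT and 0.0178 in TG. Rab3c changed by -0.41 ± 0.30 in WT and -0.5 ± 0.32 in TG, and Rab3b by -0.55 ± 0.23 and -0.19 ± 0.25. Because these genes share the Rab3 family's place in exocytosis, their ratio to Rab3a within each array was tested by a two-sided exact permutation test, a comparison chosen after the data were seen. The log2 ratio of Rab3a to Rab3b fell by 3.25 in WT and by 2.85 in TG. The ratio to Rab3c changed by -3.39 and -2.55, and that to Rab3d by -3.69 and -3.02. Each of these reached the smallest p the design allows (0.0286 for 4 against 4 and for 4 against 3), and adjusted over the 20 pairs of related genes examined they were 0.114 in WT and 0.0715 in TG. These ratios all hold the Rab3a values, so they restate its fall and give no separate evidence for it.

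**Figure D2:**
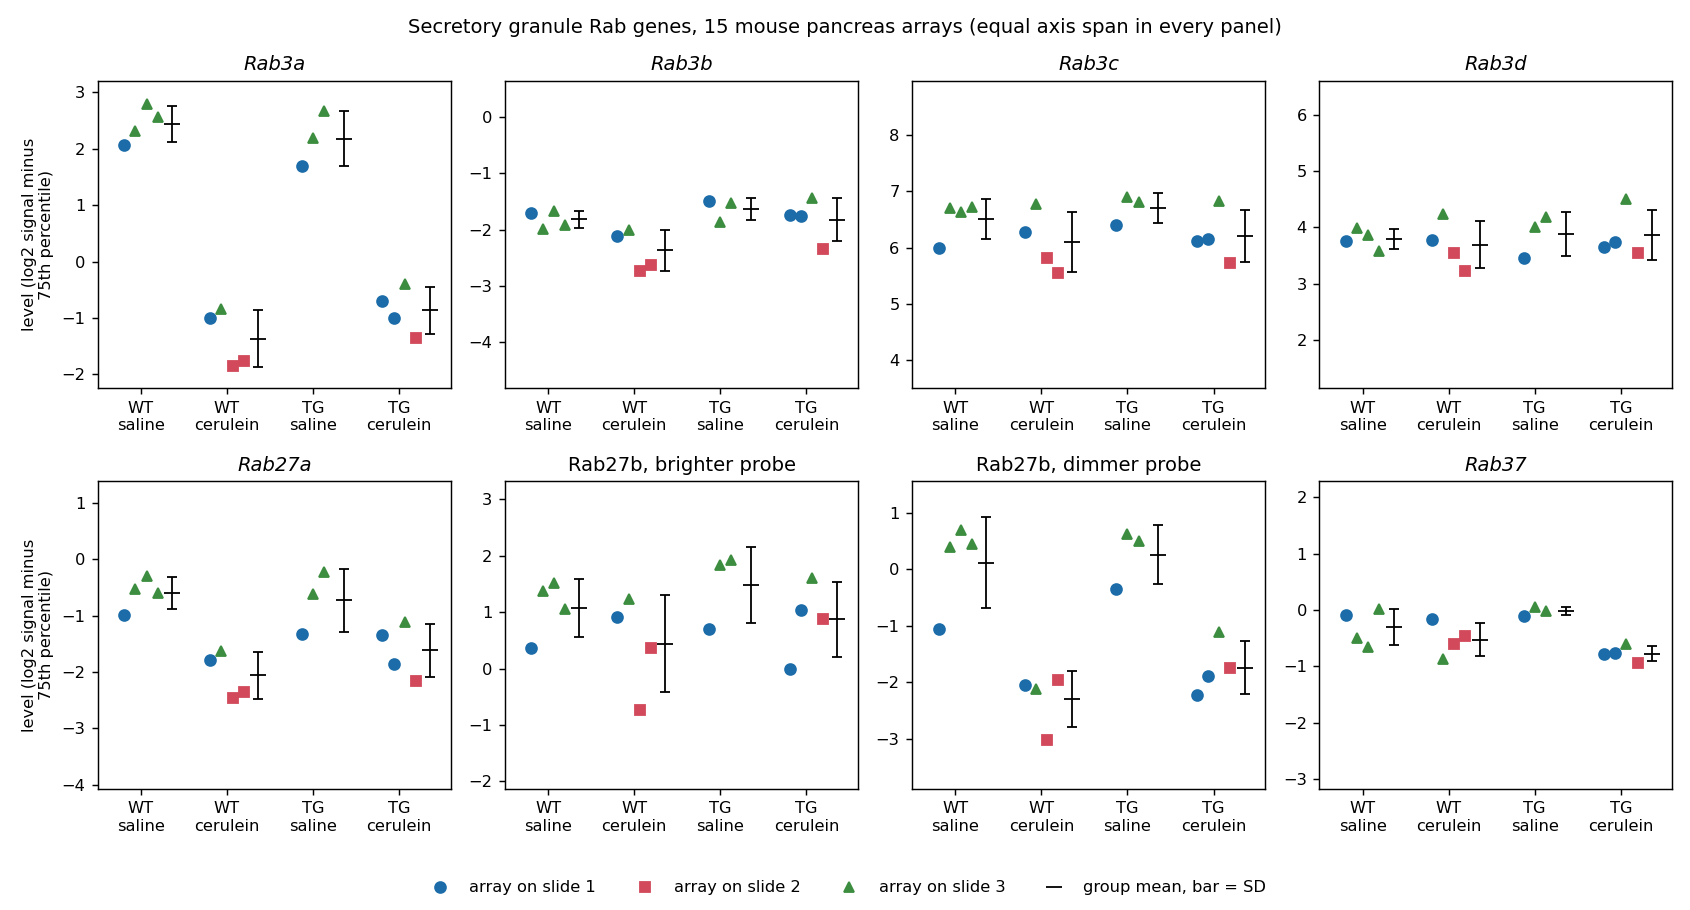
Levels (log2 signal minus the array's 75th percentile) of the secretory granule Rab genes on the 15 arrays, with the slide shown by colour and shape and the group mean ± SD at the right of each group; every panel spans the same number of log2 units. Rab3a separates saline from cerulein arrays in both genotypes, Rab3b, Rab3c and Rab3d do not in TG, and the probes of Rab27b differ.

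Islet markers were measured beside Rab3a, because islet cells also express it; in bulk tissue fewer cells of a type and less RNA per cell cannot be told apart. Of 20 islet markers, 1 fell in WT (Ucn3, -1.08 ± 0.30, adjusted p = 0.027 from limma) and 0 were called in TG, where 3 had an unadjusted p below 0.05. The median difference of the islet list was -0.58 in WT and -0.44 in TG. With slide in the model the medians were -0.13 and -0.07, and 1 marker was called lower in each genotype. The mean level of the list ran from 0.54 to 1.55 after saline and 0.26 to 1.18 after cerulein in WT, and from 1.58 to 1.7 and 0.9 to 1.85 in TG, so the groups overlapped in both genotypes. Insulin (Ins2) differed by -0.66 ± 0.32 in WT and -0.72 ± 0.34 in TG (adjusted p = 0.171 and 0.236), and of the list Scgn alone was not well above background on any array of a group (WT saline). The part of islet or nerve cells in the Rab3a fall was not tested.

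Rab27a, which with its effectors tethers granules at the plasma membrane, fell in WT pancreas. Its WT levels were -0.98, -0.52, -0.29 and -0.59 after saline and -2.36, -1.63, -2.46 and -1.79 after cerulein, with no overlap. The log2 difference was -1.47 ± 0.30, or 2.76-fold lower (adjusted p = 0.0049 from limma); it was -0.96 with slide in the model (adjusted p = 0.0028), -0.81 inside slide 1 and -1.17 inside slide 3. The lowest WT levels, -2.36 and -2.46, are those of the arrays on slide 2, and without that slide the difference was -1.12 and missed the threshold (adjusted p = 0.0546). In TG pancreas the levels were -1.33, -0.61 and -0.23 after saline and -1.35, -2.15, -1.85 and -1.12 after cerulein, and the groups overlapped. That difference of -0.89 ± 0.32 did not pass (adjusted p = 0.114), and with slide in the model it was -0.55 (adjusted p = 0.045).

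Rab27b, a Rab known on zymogen granules of acinar cells, gave different answers from its 2 probes, which carry the same RefSeq accession and were both well above background on all 15 arrays. The brighter probe, used throughout, had WT levels of 0.37, 1.38, 1.52 and 1.05 after saline and 0.36, 1.24, -0.73 and 0.91 after cerulein, and its difference was -0.64 ± 0.45 in WT and -0.61 ± 0.49 in TG (adjusted p = 0.345 and 0.517). The dimmer probe had WT levels of -1.06, 0.4, 0.7 and 0.45 after saline and -1.96, -2.12, -3.03 and -2.05 after cerulein, with no overlap. On that probe the difference was -2.41 in WT and -2 in TG (adjusted p = 0.00104 and 0.00855 from limma). The direction was the same on both probes, and the size was not.

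Rab37, a granule Rab described in mast cells and in insulin secretion, fell in TG pancreas. Its levels were -0.1, 0.05 and -0.01 after saline and -0.78, -0.94, -0.77 and -0.61 after cerulein in TG, which do not overlap, and the difference was -0.76 ± 0.22 (adjusted p = 0.0494). In WT it was -0.22 ± 0.20 (adjusted p = 0.471), and the difference between the genotypes' responses, -0.53 ± 0.30, did not pass (adjusted p = 1). The TG call sits at the threshold: of the 15 fits that left out 1 array it held in 1, that without WT cerulein replicate 10, and on the second probe the TG difference was -0.44 (adjusted p = 0.3). With slide in the model it was -0.78 (adjusted p = 0.0151). Of 4 mast cell markers 0 were called in TG by limma, where 1 had an unadjusted p below 0.05 and 1 had a positive difference. In WT Kit alone was called, lower by 1.36 (adjusted p = 0.00309 from limma), while 2 of the 4 had a positive difference, of at most 0.26. The mean level of the 4 in TG ran from -1.13 to -0.54 after saline and -1.67 to -0.87 after cerulein. The part of mast cells in the Rab37 value was not tested. Rab26, a Rab of the mature zymogen granule, had group means of 2.54 and 1.9 in WT and 2.53 and 2.1 in TG and did not pass (adjusted p = 0.0868 and 0.358). No granule Rab had a higher mean after cerulein in either genotype on the probes used, but with slide in the model Rab3d was 0.3 in WT and 0.26 in TG and Rab3c 0.14 in WT, not called.

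Acinar markers moved with the members that fell. All 10 were lower after cerulein in both genotypes, with a median of -0.78 in WT (10 with an unadjusted p below 0.05) and -0.72 in TG (7), and 0 were called by limma; with slide in the model the medians were -0.25 and -0.37, and 0 and 2 were called lower. Their mean level ran from 10.84 to 11.62 after saline and 10.11 to 11.26 after cerulein in WT, and from 10.71 to 11.29 and 9.78 to 10.78 in TG. Their part in the falls of granule Rabs, Rab2a and Rab2b was not tested.

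Among the Rabs of the endoplasmic reticulum and Golgi, Rab6a was the 1 called higher without a slide term, in WT. Rab6a acts in traffic through and out of the Golgi. Its WT levels were 1.54, 2.05, 2.04 and 2.2 after saline and 2.41, 3.35, 2.43 and 3.09 after cerulein, and its TG levels were 1.76, 2.09 and 2.26, then 2.69, 2.72, 3.09 and 3.57. Every cerulein array thus lay above every saline array of its genotype. The difference was 0.86 ± 0.27 in WT (adjusted p = 0.048) and 0.98 ± 0.29 in TG (adjusted p = 0.0539), on either side of the threshold. With slide in the model both were called, at 1.32 and 1.29 (adjusted p = 6.37e-05 and 6.24e-05), and within slides 1 and 3 the values were 1.55 and 1.25 in WT and 1.13 and 1.39 in TG. Without the slide term the WT call held in 4 of the 15 fits that left out 1 array, those without TG cerulein replicate 15 or 16 or WT cerulein replicate 11 or 12, and the largest adjusted p was 0.113.

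Rab33b, a Golgi Rab that also recruits the autophagy factor Atg16l1, had levels that differed between slides within a group. After saline its WT level was -0.08 on slide 1 and 0.51, 0.86 and 0.83 on slide 3. After cerulein it was 1.28 on slide 1, 1.74 on slide 3, and 0.81 and 0.54 on slide 2. The difference of 0.56 ± 0.30 did not pass (adjusted p = 0.221), while it was 1.37 inside slide 1, 1.01 inside slide 3 and 1.1 with slide in the model (adjusted p = 0.000162). In TG the corresponding values were 0.90 ± 0.33 (adjusted p = 0.113) and 1.28 (adjusted p = 4.75e-05). A dimmer Rab33b probe differed by 0.78 in WT and 0.14 in TG, and neither passed; its WT cerulein levels were 0.32 and 0.26 on slide 2, -0.13 on slide 1 and -1.31 on slide 3, so slide 2 was high on this probe and low on the other. Rab1a, which acts in traffic from the endoplasmic reticulum to the Golgi, differed by 0.13 in WT and 0.55 in TG without the slide term, neither called, and 0.65 and 0.94 with it (adjusted p = 0.0065 and 0.000531). Its close relative Rab1b was called in neither genotype under either model.

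Rab2a and Rab2b, which act between the endoplasmic reticulum and the Golgi and in delivery to lysosomes, fell in WT pancreas. Rab2a had levels of 2.11, 2.69, 2.85 and 2.62 after saline and 1.28, 2.21, 1.53 and 1.68 after cerulein, overlapping by 1 array on each side, and the difference was -0.89 ± 0.27 (adjusted p = 0.0433). With slide in the model it was -0.44 in WT and -0.39 in TG (adjusted p = 0.0175 and 0.027), called in both genotypes. Rab2b had levels of -0.66, -0.38, -0.05 and 0.04, then -1.32, -0.92, -1.44 and -0.7, with no overlap, and a difference of -0.83 ± 0.26 (adjusted p = 0.0435). With slide in the model that was -0.43 and not called (adjusted p = 0.107), and within slide 1 it was -0.04. Both WT calls held in 5 of the 15 fits that left out 1 array, without WT saline replicate 5, WT cerulein replicate 10, TG cerulein replicate 15 or 16 and, for Rab2a, TG saline replicate 2 or, for Rab2b, WT cerulein replicate 9. Without slide 2 both missed the threshold, at -0.62 for Rab2a and -0.54 for Rab2b (adjusted p = 0.28 and 0.257). Rab30, another Golgi Rab, had the most scattered values of the group, from -4.64 to 1.76 after cerulein in WT, and its difference of 2.21 ± 1.12 did not pass (adjusted p = 0.194). Rab39b was called only in TG with slide in the model (2.36, adjusted p = 0.0185); its levels there were -4.36, -3.67 and -3.21 after saline and -3.29, -1.36, -1.65 and -1.19 after cerulein, which overlap.

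**Figure D3:**
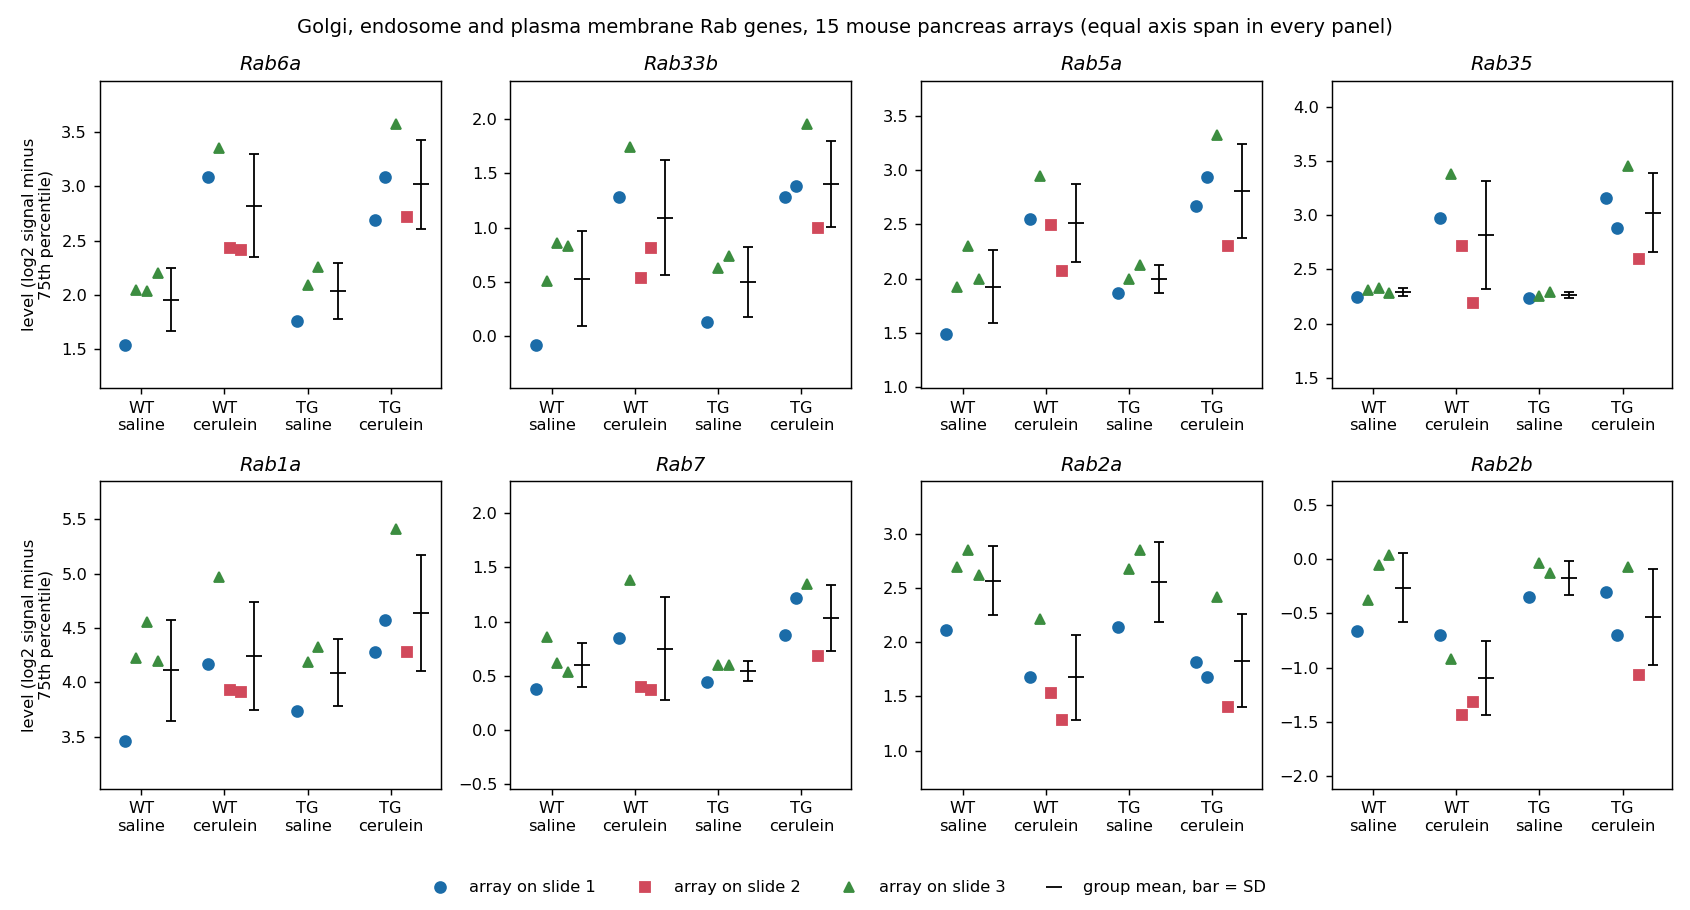
Levels (log2 signal minus the array's 75th percentile) of 8 Golgi, endosome and plasma membrane Rab genes on the 15 arrays, drawn as for the granule Rabs. Within slide 1 (circles) and slide 3 (triangles) the cerulein arrays of Rab6a, Rab33b, Rab5a and Rab35 lie above the saline arrays, and the slide 2 arrays (squares), all from cerulein, lie below the slide 3 cerulein arrays of their genotype.

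Rab5a, which drives fusion and signalling at the early endosome, was the 1 early endosome member called with slide in the model, in both genotypes. Its WT levels were 1.49, 1.92, 2.3 and 2 after saline and 2.07, 2.95, 2.49 and 2.55 after cerulein, and its TG levels 1.87, 2 and 2.13, then 2.67, 2.3, 2.94 and 3.32. The TG groups do not overlap and the WT groups overlap through 1 array. The difference of 0.58 ± 0.26 in WT and 0.81 ± 0.28 in TG did not pass (adjusted p = 0.137 and 0.0923); with slide in the model it was 0.99 and 1.08 and was called (adjusted p = 0.00105 and 0.000486). The second Rab5a probe differed by 1 in WT and 1.26 in TG and was called without a slide term (adjusted p = 0.038 and 0.025). The sister genes Rab5b and Rab5c were called in neither genotype under either model, at -0.2 and -0.55 in WT. Within arrays the log2 ratio of Rab5a to Rab5c rose by 1.14 in WT and 1.23 in TG and that to Rab5b by 0.79 and 0.82, each at the smallest exact permutation p of 0.0286 (adjusted over 20 pairs, 0.114 in WT and 0.0715 in TG). Both ratios hold the Rab5a values and are not separate evidence for its rise. Of the 10 early endosome members 0 were called in either genotype by limma without the slide term, where 4 in WT and 2 in TG had an unadjusted p below 0.05. Over all 17338 genes 5398 in WT and 3786 in TG had such a p.

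Rab35, a Rab of the plasma membrane and recycling endosomes, had narrow saline groups and a wide cerulein group. Its levels were 2.25, 2.31, 2.33 and 2.28 after saline in WT and 2.19, 3.38, 2.72 and 2.97 after cerulein. The lowest of the latter is on slide 2. The difference was 0.52 ± 0.24 in WT and 0.76 ± 0.26 in TG (adjusted p = 0.164 and 0.0977), and 0.91 and 0.99 with slide in the model (adjusted p = 0.0015 and 0.000714). Rab11a, of the recycling endosome, was called with slide in the model only, at 0.49 and 0.5, beside 0.04 and 0.19 without it. The other 9 recycling and polarised traffic members, among them Rab8a, Rab10, Rab11b and Rab25, were called in neither genotype under either model.

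Rab7, which directs late endosomes, autophagosomes and lysosomes to fusion, had levels of 0.38, 0.86, 0.62 and 0.54 after saline and 0.37, 1.38, 0.4 and 0.85 after cerulein in WT, which overlap. The TG levels, 0.44, 0.6 and 0.6, then 0.88, 0.68, 1.22 and 1.35, do not. Rab7 differed by 0.15 in WT and 0.48 in TG without the slide term (adjusted p = 0.688 and 0.307), and by 0.55 and 0.74 with it (adjusted p = 0.0125 and 0.0019). Rab7b was called in the same way (0.96 and 0.91 with slide in the model). The other 7 members of the late endosome and lysosome group that were tested, Rab9, Rab9b, Rab24, Rab29, Rab32, Rab38 and Rab42, were not called under either model. Rab23, a Rab of ciliary Hedgehog signalling, was called with slide in the model (0.68 and 0.73), and Rab28, Rab40b and Rab40c were not. Rab23 was dim, with a WT saline mean of -3.35. Its level on WT saline replicate 5, the 1 WT saline array of slide 1, was -3.81 and not well above background.

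The genotypes' responses ran close together. Over the 56 members the WT and TG differences, which come from separate animals, correlated at r = 0.886 (Spearman's rho 0.866), a description across genes on shared slides, and 49 had the same sign. Without Rab3a r was 0.817, and over all 17338 genes it was 0.852. By limma 0 members passed for the difference between the responses, and 0 of 17338 genes did, so the members' share equals the background of 0%; 0 members had an unadjusted p below 0.05, and with slide in the model 0 members and 0.00577% of all genes passed. For Rab3a that difference was 0.75 ± 0.45 with a 95% interval of -0.2 to 1.71, which includes 0.

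**Figure D4:**
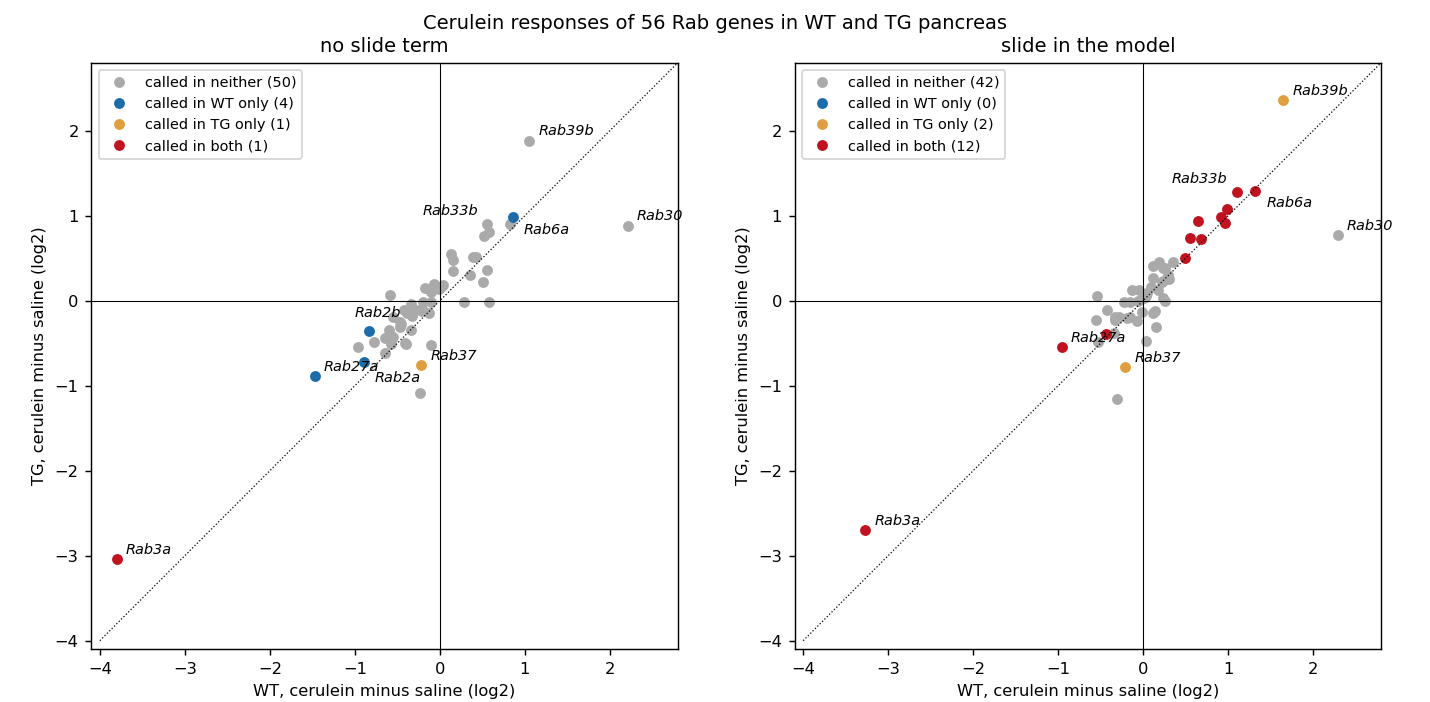
Log2 difference, cerulein minus saline, of the 56 Rab genes in WT (horizontal) against TG (vertical), without a slide term (left) and with slide in the model (right); the dotted line marks equal responses and colours show where a gene was called. Called in both genotypes are 1 gene (Rab3a) on the left and 12 on the right.

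Between genotypes 0 Rab genes passed the test in limma without a slide term. After saline 0.075% of all genes were called; an unadjusted p below 0.05 was found for 3 of 56 members (Rab31, Rab34 and Rab38) and 558 of 17338 genes. After cerulein 0.144% of all genes were called (0.138% higher and 0.00577% lower in TG), and the unadjusted counts were 4 of 56 (Rab2b, Rab3b, Rab6b and Rab34) and 1221 of 17338. Rab34, a Golgi Rab with a part in macropinocytosis and cilium formation, was the member listed in both. Its levels were 0.58, 0.8, 0.76 and 0.77 in WT and 1.16, 1.72 and 1.97 in TG after saline, and -0.1, 0.99, 0.1 and 0.57 in WT and 1.3, 1.24, 1.58 and 2.16 in TG after cerulein. The TG arrays lay above all WT arrays of the same treatment. The genotypes did not overlap for 2 members after saline and 1 after cerulein (3.57% and 1.79%), beside 6.63% and 2.51% of all genes. TG minus WT was 0.89 ± 0.30 after saline (adjusted p = 1) and 1.18 ± 0.28 after cerulein (adjusted p = 0.168), and with slide in the model 0.93 and 1.08 (adjusted p = 0.0298 and 0.00589), where Rab34 was the 1 member called in each, 1.79% of the members beside 0.225% and 0.658% of all genes. Within slides the difference was 0.57 and 1.07 after saline (slides 1 and 3) and 0.87, 1.24 and 1.18 after cerulein (slides 1, 2 and 3).

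Fibroblast markers moved with Rab34, and markers of other cell types differed between the genotypes too. The mean level of 9 of them ran from 0.63 to 1.09 in WT and 1.42 to 2.05 in TG after saline, and from -0.05 to 1.02 in WT and 1.24 to 2.57 in TG after cerulein, so the genotypes did not overlap. Of these 9 markers 3 were higher in TG after cerulein (Lum by 2.54, Col1a1 by 2.51 and Col1a2 by 1.91; adjusted p = 0.0133, 0.0467 and 0.0382 from limma), and 0 were called after saline, where 6 had an unadjusted p below 0.05. With slide in the model 2 of the 9 were called higher in TG after saline and 6 after cerulein. The mean of 7 neutrophil markers ran from -2.64 to -1.35 in WT and -1.1 to 0 in TG after saline, that of 8 duct markers from -1.46 to -0.94 and -0.86 to -0.74, and that of the islet list from 0.54 to 1.55 and 1.58 to 1.7, none of which overlap; after cerulein all 3 overlapped. The list medians of TG minus WT were 1.16, 0.33 and 0.5 after saline and 0.94, 0.53 and 0.56 after cerulein, with 0 calls in limma without a slide term (5, 1 and 1 markers after saline and 4, 2 and 5 after cerulein had an unadjusted p below 0.05). With slide in the model 1, 0 and 0 of them were called higher in TG after saline and 1, 0 and 1 after cerulein. The part of these cell types in the Rab34 difference was not tested.

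**Figure D5:**
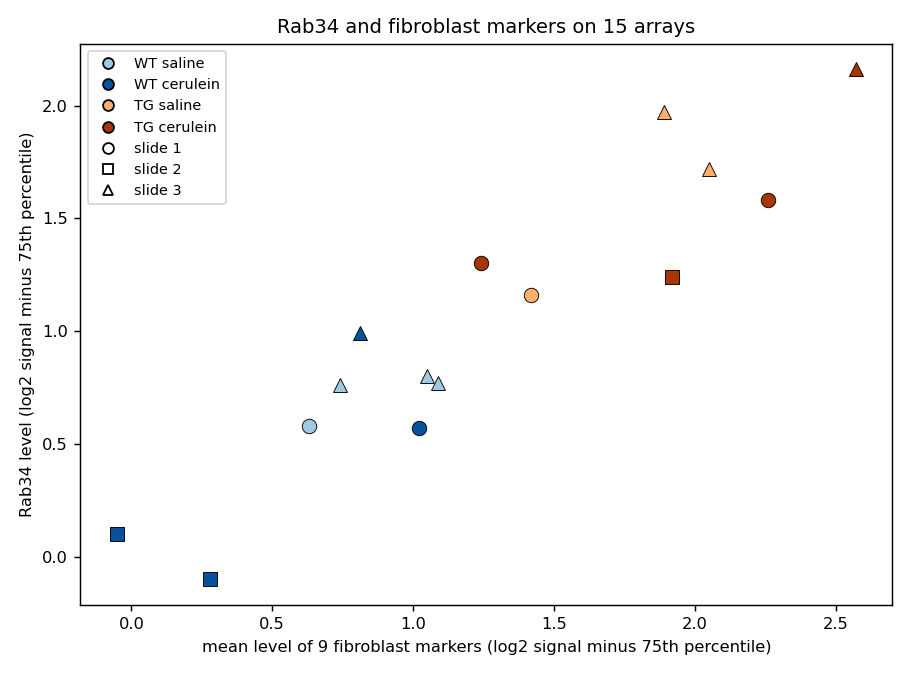
Rab34 level against the mean level of 9 fibroblast markers on each of the 15 arrays (both log2 signal minus the 75th percentile), coloured by group and shaped by slide. All 7 TG arrays have a Rab34 level of 1.16 or more and a marker mean of 1.24 or more, above all 8 WT arrays on both axes.

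Genes that act on Rabs were called in both directions; the lists were counted and not tested as sets, beside the shares of all genes given above. Of 8 genes for Rab prenylation and escort, Chml, a Rab escort protein, rose by 2.56 ± 0.29 in WT and 2.09 ± 0.32 in TG (adjusted p = 6.27e-05 and 0.000907 from limma), and Rabif, which binds nucleotide-free Rabs, fell by 1.46 in WT (adjusted p = 0.0413). With slide in the model 1 of the 8 was called higher and 0 lower in each genotype, so the fall of Rabif was not called there. Chml means were -1.71 and 0.85 in WT and -1.19 and 0.9 in TG. Of 47 exchange factors, 3 rose and 1 fell in WT, and 3 rose and 0 fell in TG; the list medians were -0.22 and -0.12. Those that rose in both were Dennd2c (DENN domain), Rin1 (for Rab5) and Rabgef1 (Rabex-5, for Rab5), by 0.91 in WT and 0.96 in TG for the last; Rin1 was well above background on 1 of 4 WT and 2 of 3 TG saline arrays. Dennd2c was not well above background on any saline array and was at least 2.59-fold higher after cerulein in WT and at least 2.47-fold in TG, against the lowest signal well above background on each dim array. Rab3il1, an exchange factor tied to Rab3a and Rab8, fell in WT by 1.18 ± 0.33 (adjusted p = 0.0296). With slide in the model 9 exchange factors were called higher and 0 lower in each genotype. The fall of Rab3il1 was thus not called there.

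Among 37 GTPase activating proteins, 4 rose and 4 fell in WT, and 5 rose and 2 fell in TG. A slide term gave 7 higher and 2 lower calls in WT, and 7 and 4 in TG. Tbc1d9 rose by 2.3 in WT and 2.21 in TG, Tbc1d25 (tied to autophagosome maturation) by 1.65 and 1.81, and Usp6nl (for Rab5) by 1.6 and 1.72. Tbc1d30 fell by 2.76 and 2.58, and Rabgap1l fell by 1.99 and 1.62; these 5 were called in both genotypes. Rab3gap2, the non-catalytic subunit of the complex that acts on Rab3 and Rab18, rose in TG by 0.94 ± 0.22 (adjusted p = 0.014) and was 0.58 ± 0.20 in WT (adjusted p = 0.0655). None of the 17 Rab3 and Rab27 effectors of exocytosis was called by limma in either genotype, where 4 in WT and 2 in TG had an unadjusted p below 0.05, and with slide in the model 1 and 2 of them were called lower.

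Of 28 endosomal effectors, 4 rose and 3 fell in WT, and 2 rose and 2 fell in TG. The counts under a slide term were 9 higher and 5 lower in WT, and 10 and 3 in TG. Ankfy1, a Rab5 effector, was well above background on 1 of 4 WT saline arrays and on no TG saline array, and on all cerulein arrays; its WT difference of 2.06 ± 0.40 thus rests on a group mostly at background, and in TG it was at least 2.55-fold higher after cerulein. Micall1, which links Rab8 and Rab35 to recycling tubules, rose by 1.36 and 1.18, and Gcc2 and the Rab5 effector Appl2 fell in both genotypes (by 1.35 and 1.03, and by 1.33 and 1.06). Golgb1 and Golga1 fell in WT (by 1.17 and 1.14) among 13 Golgi effectors and golgins, a list that does not hold Gcc2. In TG 0 of the 13 were called, where 3 had an unadjusted p below 0.05. With slide in the model 3 of the 13 were called higher and 1 lower in each genotype. Of 44 SNAREs and exocytosis regulators, 1 rose and 7 fell in WT, and 1 rose and 3 fell in TG. Adding a slide term turned this balance: 8 were called higher and 4 lower in WT, and 9 and 3 in TG. Stx3, a syntaxin, rose by 2.5 ± 0.25 in WT and 2.5 ± 0.27 in TG, from means of 0.32 to 2.81 and 0.54 to 3.04. Vamp2, the synaptobrevin of zymogen granules and synaptic vesicles, fell by 1.55 and 1.26, and Stxbp6 (amisyn) fell by 1.88 and 1.64. Stxbp5 (tomosyn) was not well above background on any WT cerulein array and was at least 2.61-fold lower there.

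Among 20 other small GTPases of the Arf, Arl and Sar families 1 rose and 4 fell in WT, and 1 rose and 1 fell in TG. Under the slide model 5 were called higher and 3 lower in WT, and 7 and 2 in TG. Arf6, which acts at the plasma membrane, rose by 1.36 and 1.35, and Arl8b, which moves lysosomes, fell by 1.64 and 1.16. The 6 Rab-like genes outside the symbol rule gave 0 calls in limma without a slide term, where 2 in WT and 0 in TG had an unadjusted p below 0.05. A slide term gave 1 higher call among them in each genotype. Of 9 transcription factors of the acinar secretory programme 1 rose and 3 fell in WT, and 1 rose and 1 fell in TG. The slide model called 1 higher and 2 lower in WT, and 2 and 4 in TG. Ptf1a rose by 1.17 in WT and 1.68 in TG, and Rbpjl fell by 1.81 and 1.73. Bhlha15 (Mist1), which is known to control Rab3d and Rab26, fell by 1.24 ± 0.39 in WT (adjusted p = 0.0466) and was -0.43 ± 0.42 in TG (adjusted p = 0.601); with slide in the model it was -0.68 and not called in WT (adjusted p = 0.154).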

How the data were processed

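Total RNA of 15 pancreas samples had been hybridised to 1 one-colour Agilent array each. The authors deposited spot intensities from Agilent's Feature Extraction (version 10.7.3.1 in the file headers), already corrected for background (gProcessedSignal), with flags, other values of 0 or 1, for outliers and for signal well above background; a deposited series table holds log2 values of 42482 probes whose centring is unstated and whose r with the scanner values was 0.987 to 0.998 per array.

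Of 59305 spots that are no controls, outlier spots were left out, spots of 1 probe were averaged, and log2 signals were taken minus the 75th percentile of the array. Probes were named through their RefSeq accession (27235 of 55681 probes matched a symbol), and a gene is its brightest probe well above background on at least 3 arrays. In R 4.3.3, limma 3.58.1 fitted 4 group means to all arrays without a covariate (11 residual and 3.54 prior degrees of freedom), with 5 two-sided comparisons, Benjamini-Hochberg adjustment over 17338 genes and a threshold of 0.05; errors are SE unless named. The fit was tested on simulated data without a slide effect, with planted changes larger than those of most Rab genes. That test thus does not cover slide effects or smaller changes. Slide, which is also the scan, was an alternative, as were normexp (offset 50, on the median signal, the foreground column used here), quantile scaling, the series table, probe rules, dim-probe filters and leaving out each array. Intervals are 95%. The labels number each sample as a mouse of its own, and the number of arrays limits the precision.

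Named genes were all Rab members, with per-array values for those called or discussed, and up to 3 called genes a direction from each other list. The members, lists and tests were chosen with earlier results of these data known; the paralog ratios, second probes and leaving out slide 2 were added after the values were seen, and so were the members Rab5a, Rab7, Rab33b, Rab34, Rab35 and Rab39b as ones shown per array. Promoter windows are RefSeq's, GRCm38.p6; the arrays themselves need no build. The nerve and glia marker list is not reported here.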

Additional observations from a re-analysis of the deposited data

Results flagged for a closer look

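In 7 of 168 groups of 4 arrays 1 array lay far from the other 3 for a Rab gene; chance gives about 1 group in 20. In WT saline replicate 5 was lowest for Rab14 (3.37, nearest 4.01), Rab23 (-3.81, nearest -3.26) and Rab3c (5.99, nearest 6.63). In WT cerulein replicate 10 was highest for Rab18 (2.75, nearest 2.07), and replicate 12 was highest for Rab9b (-2.68, nearest -3.41). In TG cerulein replicate 13 was highest for Rab20 (-1.07, nearest -1.75), and replicate 16 was highest for Rab28 (0.93, nearest -0.36). None of these genes was called by limma without a slide term.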

How the results depend on the processing

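No value reversed its call under the alternatives run. The number of Rab genes called higher in WT, 1 as reported, was 3 with normexp or quantile scaling, 0 with the array median or without a filter on dim probes, 9 with slide in the model, and 2 with the series table, the mean of probes, the second probe or without slide 2. The number called lower in WT, 4 as reported, was 7 with normexp, 8 with quantile scaling, 2 with the median or no filter, and 1 without slide 2. Called higher in TG were 0 as reported, 4 with normexp or the series table, 5 with quantile scaling, 10 with slide in the model, 3 without slide 2, and 1 with the filter on all arrays, the mean of probes or the second probe. Called lower in TG were 2 as reported, 4 with slide in the model, and 1 with the median, the series table, no filter, the mean of probes or without slide 2. Rab34 alone was called between genotypes: 1 gene with slide in the model after saline, and 1 with slide, normexp or quantile scaling after cerulein. Leaving out 1 array gave 0 to 1 higher and 2 to 9 lower calls in WT, 9 being without WT cerulein replicate 10, and 0 to 2 higher and 1 to 2 lower in TG; between genotypes and for the difference of responses it gave 0. The cause was not tested. The share of all called genes that were higher in WT was 40.3%, against 29.2% with normexp, 63.9% with slide in the model and 71.2% without slide 2; in TG it was 58.3%, against 69.2% with the median and 50.3% with normexp. Leaving out 1 array moved it between 28.3% (without WT cerulein replicate 10) and 55.3% (without WT cerulein replicate 12) in WT, and between 47.4% (without TG cerulein replicate 15) and 73.2% (without TG saline replicate 3) in TG. The array median moved the median of all genes to -0.26 in WT, and normexp to -0.23 in WT and -0.2 in TG. No paired analysis was possible because the groups compared share no replicate numbers.

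Calls were not refitted within slides, which hold 1 array of some groups. Bulk RNA does not separate cell types, 1 slide holds cerulein arrays alone, and of the called members Rab3a alone passed in both genotypes under every refitted alternative, while each other call was lost under at least 1 (Rab27a in WT without slide 2).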
